A study of Mus musculus with 12 samples.

Results

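The genes that ET cells express at rest were read from the 6 arrays of cells that received only the solvent, out of 12 arrays in the series. ET is a mouse line that the labels call fetal cortical thymic epithelium, and neither strain, fetal age nor number of clones is given. All 6 cultures were grown to between 80% and 90% confluence in high-glucose DMEM with 10% fetal calf serum and then given 1,4-dioxane, the solvent control, at 0.05% by volume. RNA was taken with TRIzol after 2, 4 or 6 h, with 2 arrays at each time. The other 6 arrays are of cells given 5 nM TCDD, an AhR ligand, for the same times. They give no level here and enter only 1 alternative fit of the test over time. The design text calls the duplicates biological without saying at which step they were separate, so the spread between arrays may be partly technical. Both 6 h solvent arrays have a free-text description of 4 h, while their titles and time fields say 6 h. They are taken as 6 h here. The ranking covers 12393 mouse genes, each represented by its probe set of highest mean signal.

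Cortical thymic epithelial cells form the outer part of the thymus, where they attract T cell precursors, drive their commitment and present the peptides on which T cells are positively selected. Their identity depends on the factor Foxn1, and they carry keratins 8 and 18, the junction protein E-cadherin and the surface protein EpCAM. The thymus also holds mesenchymal cells, which make collagens and feed growth factors to the epithelium. A fibroblast-like cell is usually recognised by fibrillar collagens, vimentin and the receptor PDGFRA.

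Values are log2 signals, so 1 unit is a doubling, and they ran from 2.2 to 14.1. All ± values are SD over the 6 solvent arrays. Signals of different probe sets also depend on how well each binds, so the order of genes is a rough one and no fold is given between genes. To separate likely signal from background, genes of unrelated organs (liver, pancreas, testis, eye, pituitary and others) served as a reference. For 57 such genes on the array the median level was 3.88, and their 95th percentile, 5.96, is called the reference level. Of all genes, 5587 of 12393 (45.1%) had a mean above it. A gene at or below that level could not be told apart from genes of other organs on these arrays, which does not show that it is silent. The 3 reference genes above the level include Cela1 at 7.17, so a level between 5.96 and about 7.17 is weak support for expression. The 6 arrays had the same median, 5.10, and correlated with one another at r of 0.986 to 0.995 across probe sets. The processing gives all arrays nearly the same distribution, so the equal medians are no measure of agreement. The second 2 h array had 106 genes at least 1 log2 unit away from the median of the 6 arrays and the second 6 h array had 90, against 0 or 1 on each of the other 4. With those 2 arrays left out, 5604 genes were above the same level.

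The strongest signals in ET cells came from genes of the ribosome, with those of actin and a few other abundant proteins. Among the 25 highest genes, 19 encode ribosomal proteins, 2 are translation factors and 4 (Actb, Lgals1, Tmsb10 and Actg1) belong to a list of cytoskeletal and associated proteins. Rpl41, a small protein of the large ribosomal subunit, was highest, with values between 13.7 and 13.9 and a median of 13.8. Actb, which encodes cytoplasmic beta-actin, followed at 13.7 to 13.8. Lgals1, encoding the sugar-binding protein galectin-1, lay between 13.6 and 13.8, and Tpt1, a translation-associated protein, between 13.6 and 13.7. Their spread is close to the 0.1 step in which the values are given. Of these 25 genes, 24 were among the 25 highest on every array, and 9 are read by probe sets whose names mark possible binding to related transcripts. Array signals flatten near their ceiling, so the order within this group has little meaning. The wider group of 100 highest genes held 34 ribosomal protein genes, 8 translation factors, 12 genes of the cytoskeleton list, 4 glycolytic enzymes and 6 genes of the extracellular matrix. The cytoskeleton list also takes in associated proteins, so that Lgals1, the calcium-binding S100a6 (12.40 ± 0.24) and the membrane-binding Anxa2 (11.73 ± 0.12) are among the 12. The matrix members were Sparc (12.55 ± 0.08), Fn1 (12.28 ± 0.13), Bgn (12.15 ± 0.15), Col1a1 (12.12 ± 0.25), Col3a1 (12.03 ± 0.14) and Col1a2 (between 11.6 and 12.3). Cxcl12 (12.33 ± 0.14), a chemokine that attracts blood progenitors, and Mif (12.43 ± 0.15), a secreted inflammatory mediator, were also among the 100. This ranking misses part of the signal, because 54 of the 100 brightest probe sets carry no single gene symbol (43 list several genes and 11 none).

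Transcripts of the translation machinery often start with a C followed by a run of pyrimidines, the tract through which their translation follows cell growth. The starts of highly ranked genes are shown here to let that feature be seen, as 50 bases before and 10 bases from the annotated start, from RefSeq on GRCm38.p6. The capitals mark a C at the start followed by 4 bases that are each C or T, or, in Vim, the motif TATAAA. The windows are chr17:33955656-33955715 on the minus strand for Rps18, chr11:114668530-114668589 on the plus strand for Rpl38, chr2:39005122-39005181 on the minus strand for Rpl35 and chr7:141447601-141447660 on the plus strand for Rplp2. Rpl41, the gene of highest signal, stands for the larger number of ribosomal protein genes without the tract at their annotated start. Its window is chr10:128549159-128549218 on the minus strand. Vim, the intermediate filament gene that marks mesenchymal cells, comes from chr2:13574261-13574320 on the plus strand.
Rps18: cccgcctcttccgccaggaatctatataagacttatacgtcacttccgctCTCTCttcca
Rpl38: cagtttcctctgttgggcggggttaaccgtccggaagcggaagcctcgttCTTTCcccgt
Rpl35: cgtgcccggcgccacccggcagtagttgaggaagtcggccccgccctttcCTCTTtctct
Rplp2: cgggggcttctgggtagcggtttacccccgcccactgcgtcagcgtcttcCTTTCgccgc
Rpl41: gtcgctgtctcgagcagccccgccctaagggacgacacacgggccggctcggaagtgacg
Vim: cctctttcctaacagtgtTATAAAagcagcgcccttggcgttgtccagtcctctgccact
A single RefSeq promoter was listed for 7938 of the 12393 genes. The pyrimidine start was found on the coding strand in 194 of them (2.44%) and in 8 of 33 ribosomal protein genes above the reference level (24.2%). Among translation factors above that level it was in 1 of 12 (8.33%). An annotated start that is off by a few bases hides the tract, so these counts describe the annotation as much as the genes. TATAAA on the coding strand, lying within 15 to 40 bases before the start, was in 1.13% of the genes above the reference level and in 4.90% of those at or below it. GGGCGG, the GC box, on either strand within 250 bases before the start, was in 65.6% and 43.9% of the same groups. The GC box was thus commoner, and TATAAA rarer, among the genes with signal. The same 250 bases had a median of 60.4% G and C above the level and 56% at or below it. Whether the motif shares differ beyond this base composition was not tested.

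Genes by which the labelled identity can be checked did not fall on the epithelial side. Of the 6 checked markers, 3 lay below the reference level on all 6 arrays, and these are the epithelial ones. Krt8 ran from 4.9 to 5.3 (median 5.0), Krt18 from 3.8 to 4.1 (median 4.05) and Epcam from 3.4 to 3.7 (median 3.55). The mesenchymal markers were above it on every array. Vim ran from 12.1 to 12.5 (median 12.3), and Col1a1, a chain of type I collagen, from 11.7 to 12.4 (median 12.15). Thy1, a surface protein of fibroblasts as well as of T cells, ran from 7.3 to 8.0 (median 7.45), with its highest value on the second 2 h array. In a culture measured in bulk, fewer cells of a type and less RNA per cell cannot be told apart. Because the epithelial markers lie under the reference level and the mesenchymal ones above it, the cells are called ET cells here and are given no other name.

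**Figure D1:**
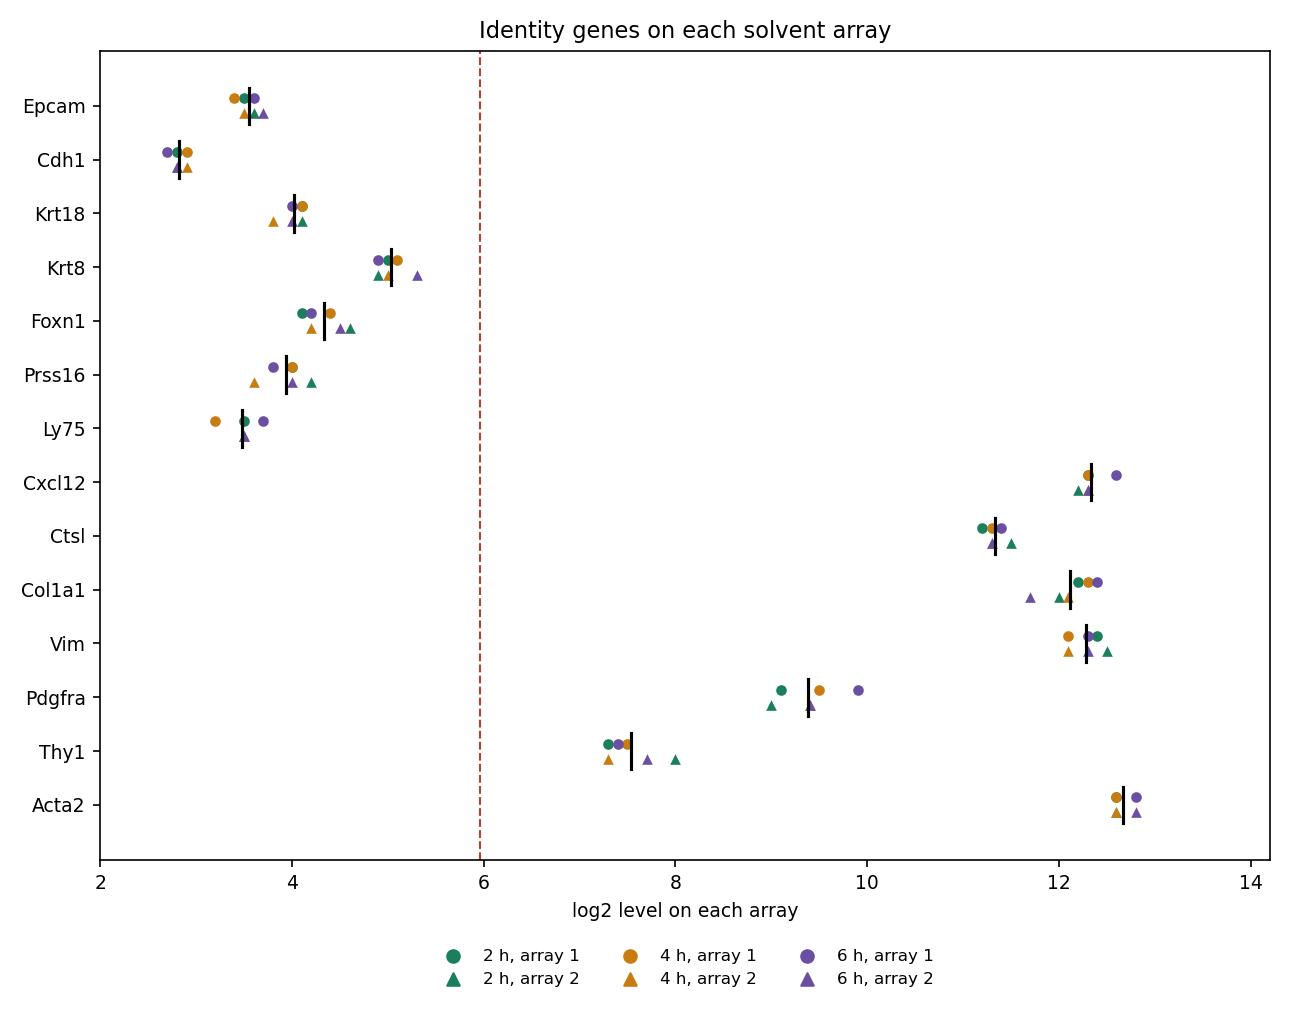
Log2 level (x axis) of 14 genes of cell identity on each of the 6 solvent arrays; colour gives the time, circles array 1 and triangles array 2, some points overlap, and black bars are means over the arrays. The dashed line is the reference level of 5.96, and the 7 genes at the top, all epithelial or thymic epithelial, lie below it on every array.

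The wider epithelial list showed the same. Of 42 genes of keratins, desmosomes, tight junctions and epithelial transcription factors, 2 were above the reference level (4.76%, against 45.1% of all genes), and the median member stood at 3.99, percentile 24.2 of all genes. Cdh1, which encodes E-cadherin, ran from 2.7 to 2.9, at percentile 2.29 of all genes. Ocln (2.85), Perp (3.02), Dsp (3.08) and Cldn7 (3.38), all parts of epithelial junctions, were as low as the reference genes. The basal keratins Krt5 (4.93) and Krt14 (4.42) and the basal regulator Trp63 (3.97) were below the reference level too. Both exceptions were modest in level. Jup, the junction protein plakoglobin, which other cell types also use, ran from 6.8 to 7.3, and Crb3, a polarity protein, from 6.6 to 6.8 on its highest probe set while its lowest averaged 4.93. The count depends on the threshold: 22 of 42 were above the 30th percentile of all probe sets, where 9474 of 12393 genes are, and 0 were above Cela1, the highest reference gene.

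Among 18 genes of cortical thymic epithelium, 3 were above the reference level (16.7%, against 45.1% of all genes), and none of the 3 is restricted to that cell type. Cxcl12 was at 12.2 to 12.6 (median 12.3), with the highest value on the first 6 h array. Ctsl, the protease cathepsin L that cuts peptides for CD4 T cell selection in the cortex and is also made by fibroblasts, was at 11.2 to 11.5 (median 11.3). Kitl, the stem cell factor that supports progenitors, was at 6.7 to 7.9 (median 7.35), but the lowest of its 4 probe sets averaged 3.47. The defining genes were lower. Foxn1 ran from 4.1 to 4.6 (median 4.3), Prss16, the thymus-specific serine protease, from 3.6 to 4.2 (median 4.0), and Ly75, the surface lectin DEC-205, from 3.2 to 3.7 (median 3.5). Il7 (2.83), the survival factor for precursors, and the Notch ligand Dll4 (4.63) were also low, and the thymic chemokine Ccl25 (5.87) lay just under the reference level. The count was 12 of 18 with the 30th percentile of probe sets as the threshold. Of 11 medullary genes 0 had a mean above the reference level (0 to 1 on single arrays), against the same 45.1%. The highest of these means was 5.93, just under the level. Aire, which drives expression of tissue antigens in the medulla, was at 5.00 ± 0.23.

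By contrast, 32 of 36 fibroblast and mesenchyme genes were above the reference level (88.9%, against 45.1% of all genes), with a median of 8.84 at percentile 91.2. Structural genes led. Sparc, a collagen-binding matrix protein, ran from 12.5 to 12.7, Fn1, fibronectin, from 12.1 to 12.4, and Col3a1 from 11.8 to 12.2. Collagen processing was represented by Serpinh1 (11.48 ± 0.12), a collagen chaperone, Lox (10.55 ± 0.25), which cross-links fibres, and P4ha1 (9.05 ± 0.12), a prolyl hydroxylase. The receptors Pdgfra (9.0 to 9.9, median 9.4) and Pdgfrb (7.77 ± 0.57) and the mesenchymal cadherin Cdh2 (8.63 ± 0.31) were above the level as well. So were the transcription factors Prrx2 (8.28 ± 0.17), Prrx1 (8.12 ± 0.33), Tcf21 (7.52 ± 0.37), Snai1 (7.15 ± 0.64), Twist1 (7.12 ± 0.25) and Snai2 (7.08 ± 0.16). The means of the last 3 lie within the range of weak support. Above Cela1, the highest reference gene, were 25 of the 36 genes, against 3257 of 12393 among all genes. The 4 members below the reference level were Cdh11 (4.80), Zeb2 (4.38), Lum (4.25) and Fap (2.92). Dropping the second 2 h and second 6 h arrays left the count at 32. Of the 19 among the 32 genes that have several probe sets, 4 had a lowest probe set under the level: Lox (2.95), Zeb1 (2.90), Pdgfra (5.67) and Prrx1 (5.68).

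Of 15 contractile genes, 10 were above the reference level (66.7%, against 45.1% of all genes), and 3 of the 10 had a lowest probe set under it. Acta2, smooth muscle actin, ran from 12.6 to 12.8, although its probe set may also bind other actins and the second probe set averaged 3.88. Tagln (10.7 to 11.2), Cnn2 (10.8 to 11.3) and Tpm2 (10.5 to 11.4) encode proteins that bind actin filaments, as does Cnn1 (9.22 ± 0.15). The 5 list members under the reference level were Myh11 (3.77), Myocd (3.43), Actg2 (4.78), Lmod1 (4.88) and Des (5.38). Markers of mature smooth muscle were therefore mixed, since Cnn1, which is also one, was above it.

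Other cell types, not all of them found in a thymus, left few signals. Their shares stand against 45.1% of all genes. Endothelial genes were above the reference level in 1 of 16 (6.25%), the TGF-beta co-receptor Eng (7.1 to 7.3, with a second probe set at 4.52). Pecam1 was at 3.22 and Cdh5 at 3.50. Thymocyte genes were above it in 2 of 16 (12.5%), Thy1 and the kinase Zap70 (6.82 ± 0.17, with a second probe set at 4.23), while Ptprc, the pan-leukocyte CD45, was at 2.83 and Rag1 at 2.70. Macrophage and dendritic genes were above it in 1 of 16 (6.25%), the lipopolysaccharide co-receptor Cd14 (6.6 to 7.4), with Adgre1 at 3.55 and Aif1 at 3.22. Skeletal muscle genes were above it in 0 of 9 (0%). Neural crest and glial genes gave 1 of 8 (12.5%), Nes (6.82 ± 0.15), and genes of fat, cartilage and bone 2 of 12 (16.7%). The count for fat, cartilage and bone was 1 without the second 2 h and second 6 h arrays. In this last list Lpl, lipoprotein lipase, ran from 9.5 to 10.5, while Pparg (5.67) and Adipoq (2.97), which define fat cells, were below the level.

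**Figure D2:**
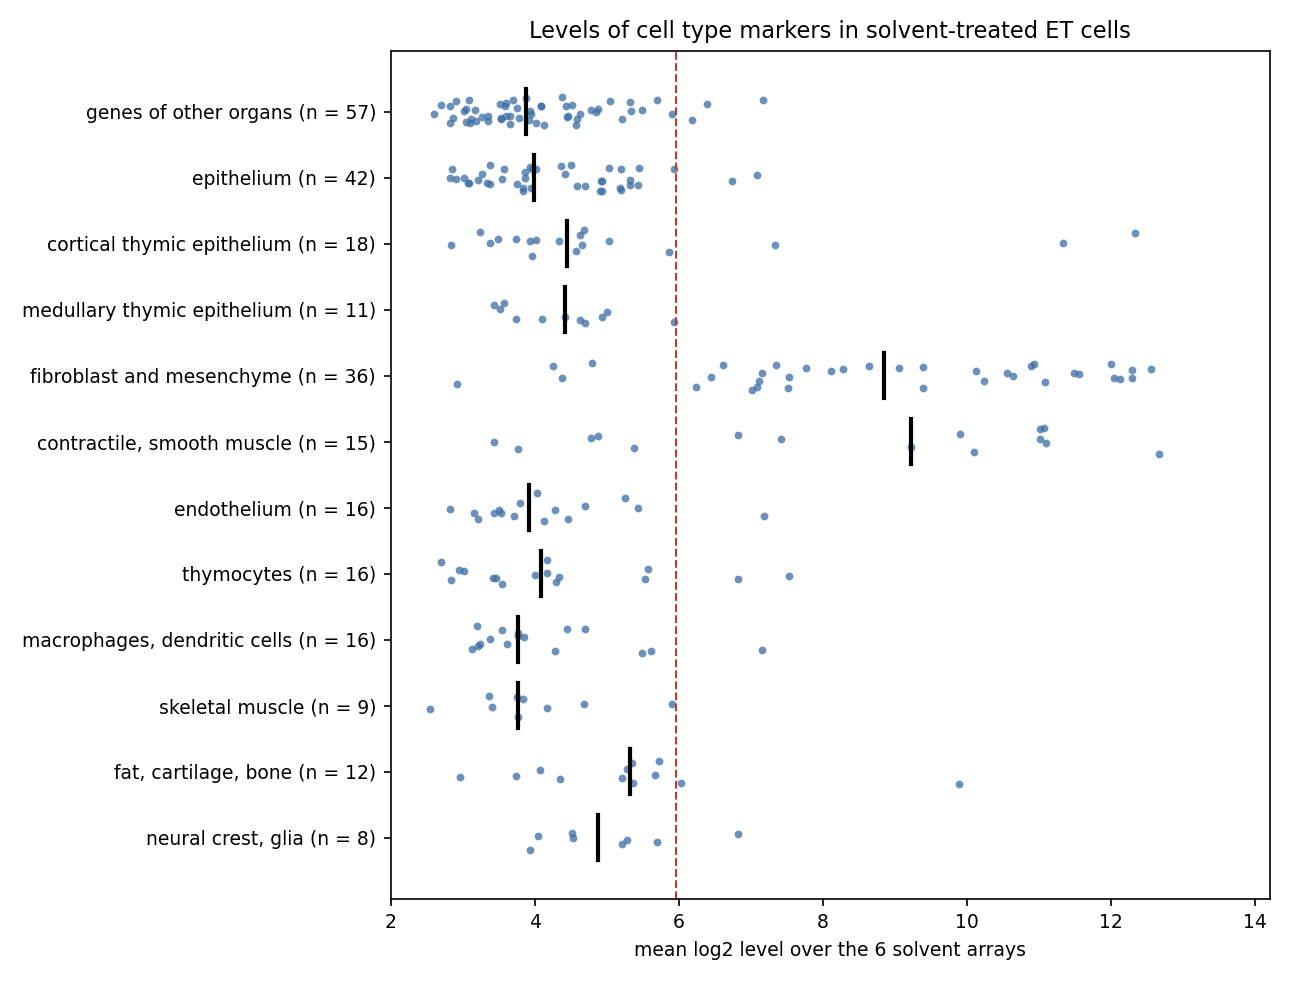
Mean log2 level over the 6 solvent arrays (x axis) of each gene in the reference list and in 11 cell type lists, with n the genes on the array; points are genes, scattered vertically for clarity, black bars are list medians and the dashed line is the reference level of 5.96. The fibroblast list, with 32 of 36 genes to the right of the line, and the contractile list, with 10 of 15, stand apart from the other lists, in which 0 to 3 genes lie to the right.

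Hox genes record the position of a cell along the body axis, and 5 of 31 were above the reference level (16.1%, against 45.1% of all genes; 4 to 8 on single arrays): Hoxb2 (7.4 to 7.7), Hoxa5 (6.0 to 7.0), Hoxc9 (6.45 ± 0.14), Hoxb4 (6.42 ± 0.31) and Hoxa7 (6.18 ± 0.12). Hoxa5 and Hoxb4 were lowest on the second 2 h array. Hoxa3, which the pharyngeal pouch needs to form a thymus, was at 5.83, just under the level. Of 31 regulators of the pharyngeal region, 6 were above it (19.4%), led by Osr1 (7.45 ± 0.19), Meis2 (7.38 ± 0.27) and Pbx2 (6.85 ± 0.46). Tbx1 (3.28) and Isl1 (3.80), factors of the pharyngeal arches, and Pax1 (3.73), Pax9 (4.68) and Eya1 (3.97), factors of the pouch from which the thymus grows, were lower.

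Surface and nuclear receptors as a whole were above the reference level in 69 of 197 (35.0%, against 45.1% of all genes). Among these, 48 have several probe sets, and for 37 of the 48 the lowest was at or under the level. The same held for 1845 of 2930 such genes among all genes. Receptor tyrosine kinases gave 15 of 43. Pdgfra and the collagen receptor Ddr1 (9.1 to 9.5, lowest on the second 6 h array) had the highest means, both 9.38. Axl, a receptor for Gas6, ran from 8.8 to 9.1, and Fgfr1 from 8.0 to 8.7. Egfr was at 7.03 ± 0.19 and the FGF receptor gene Fgfr2, whose epithelial and mesenchymal forms are not told apart here, at 6.37 ± 0.26, while Met (3.73), Erbb3 (3.93) and Kit (4.20) were below the level. Integrins, the receptors for matrix, gave 6 of 21: Itgb1 (8.8 to 9.2), Itgb5 (8.57 ± 0.34), Itga5 (8.40 ± 0.44), Itgav (8.20 ± 0.28), Itga2b (6.72 ± 0.13) and Itga3 (6.57 ± 0.14). The products of Itga5 and Itgb1 pair to bind fibronectin. Itga6 (5.43) and Itgb4 (4.93), whose products pair as the laminin receptor of epithelial hemidesmosomes, were below it.

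Receptors for cytokines gave 12 of 20 (60%), and 10 of 20 (50%) without the second 2 h and second 6 h arrays, near the 45.1% of all genes. Il10rb, a chain of several class 2 cytokine receptors, ran from 7.8 to 8.7, and Il6st, the shared gp130 chain of the IL-6 family, from 8.0 to 8.5. All 4 interferon receptor genes on the list were above it: Ifnar2 (8.10 ± 0.19), Ifnar1 (7.03 ± 0.24), Ifngr2 (6.90 ± 0.14) and Ifngr1 (6.50 ± 0.18). Il7r (3.03), the receptor of T cell precursors, was not. TNF and Toll-like receptors gave 7 of 20. Tnfrsf12a, the receptor for TWEAK, ran from 9.4 to 11.5, with the top value on the second 2 h array and a mean of 9.58 without the second 2 h and second 6 h arrays. Tnfrsf1a, the main TNF receptor, was at 8.38 ± 0.17 and Ltbr, which organises lymphoid stroma, at 7.63 ± 0.27, whereas Cd40 (4.70) and Tnfrsf11a (3.52), the receptors through which medullary epithelium matures, were below.

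Developmental receptors were mixed. TGF-beta and BMP receptors gave 6 of 13 (46.2%), led by Tgfbr2 (7.1 to 7.6), and all 6 had a lowest probe set at or under the level. Receptors of Notch, Wnt and Hedgehog gave 7 of 17 (41.2%). Both shares are near the 45.1% of all genes. The second list was led by the Hedgehog transducer Smo (7.9 to 8.5), the Wnt receptor Fzd2 (7.3 to 8.3) and Notch2 (7.5 to 8.2). Notch1 was at 5.13. Of 29 G protein receptors 3 (10.3%) were above the level: the thrombin receptor F2r (9.1 to 10.0), the prostaglandin E2 receptor Ptger4 (6.93 ± 0.50) and the lysophosphatidic acid receptor Lpar1 (6.53 ± 0.19). Cxcr4, the main receptor for Cxcl12, was at 3.07 and the alternative receptor Ackr3 at 5.38.

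Nuclear receptors and their partners gave 13 of 34 (38.2%, against 45.1% of all genes). The list was led by the thyroid hormone receptor Thra (7.8 to 8.6), Nr2f6 (7.85 ± 0.14), Rxrb (7.77 ± 0.20) and the retinoic acid receptor Rarg (7.77 ± 0.14). Ahr, the ligand-activated factor that the series set out to activate, was at 7.6 and 7.2 at 2 h, 7.3 and 7.3 at 4 h, and 8.0 and 6.6 at 6 h, for arrays 1 and 2 in that order. Every array was above the reference level, and the pair at 6 h spanned the whole range. The second Ahr probe set averaged 4.25. Arnt, the partner with which AhR binds DNA, was at 4.62, below the reference level. The glucocorticoid receptor Nr3c1 was at 7.22 ± 0.33.

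Secreted and matrix proteins were above the reference level in 115 of 279 (41.2%, against 45.1% of all genes), but the lists differed widely, from 67.6% of matrix enzymes to 11.8% of Notch and Wnt ligands. Collagens gave 16 of 30. The fibrillar chains Col1a1, Col3a1, Col1a2 and Col5a2 (10.88 ± 0.18), the microfibrillar chains Col6a1 (10.93 ± 0.23) and Col6a2 (10.23 ± 0.31), and the basement membrane chains Col4a1 (10.50 ± 0.13) and Col4a2 (9.90 ± 0.11) were highest. Col2a1 of cartilage (5.28) and Col17a1 of epithelial hemidesmosomes (3.28) were below the level. Matrix glycoproteins gave 28 of 47. Bgn, the proteoglycan biglycan, was at 12.15 ± 0.15 and Dcn, decorin, was at 10.63 ± 0.34. Matrix enzymes and inhibitors gave 23 of 34, with Pcolce (11.1 to 11.6), which assists procollagen cleavage, Serpinf1 (11.28 ± 0.17), an anti-angiogenic protein, Timp2 (11.08 ± 0.04), a metalloprotease inhibitor, and the gelatinase Mmp2 (10.12 ± 0.21) near the top.

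Growth factors gave 16 of 36 (44.4%, near the 45.1% of all genes). Angptl4, a lipase inhibitor, ran from 9.2 to 9.7, the progranulin gene Grn from 9.4 to 9.6, Vegfd, a lymphatic growth factor, from 8.6 to 9.6, and Ptn, pleiotrophin, from 8.3 to 9.4. Fgf7 (8.73 ± 0.55), which mesenchyme makes for epithelium, was also high, whereas Fgf10 (3.77), a relative with a similar role in the thymus, was below the level. The insulin-like growth factors Igf1 (5.92) and Igf2 (5.85) lay just under it. Of 8 IGF-binding genes 4 (50%) were above it, Igfbp7 (10.0 to 10.6), Igfbp4 (9.90 ± 0.33), Igfbp6 (9.32 ± 0.12) and Igfbp3 (7.55 ± 0.23). In the TGF-beta and BMP family 13 of 26 genes (50%) were above it. Both shares are near that of all genes. Fstl1, a secreted BMP antagonist, ran from 10.8 to 11.5, and Ltbp3, which stores latent TGF-beta in matrix, from 8.7 to 9.3. Bmp4, a mesenchymal signal to the thymic rudiment, ran from 7.6 to 9.1, with both extremes at 6 h, while Bmp2 was at 2.77. Wnt, Notch and Hedgehog ligands and antagonists gave 4 of 34 (11.8%): the antagonists Sfrp2 (7.05 ± 0.16), Dkk3 (6.88 ± 0.21) and Sfrp4 (6.02 ± 0.15), and Wnt4 (6.58 ± 0.38), the only Wnt ligand among them.

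Of 28 chemokines, 8 were above the reference level (28.6%, against 45.1% of all genes). Besides Cxcl12, the neutrophil attractant Cxcl1 ran from 10.7 to 11.8 (median 11.35), the monocyte attractant Ccl2 from 7.9 to 8.8, the membrane-bound Cx3cl1 from 8.0 to 8.5, and Cxcl5 (7.63 ± 0.38), Ccl7 (7.43 ± 0.50), Ccl5 (6.42 ± 0.15) and Cxcl16 (6.08 ± 0.15) followed, the last pair within the range of weak support. Of 38 cytokines 5 were above it: Mif (12.3 to 12.7), the macrophage growth factor Csf1 (8.7 to 9.1), the soluble pattern receptor Ptx3 (7.9 to 8.4), Il6 and Clcf1 (6.18 ± 0.16). Il6 ran from 6.0 to 8.2 with a median of 6.15 and averaged 6.08 without the second 2 h and second 6 h arrays, just over the level. Il1a (3.12), Tnf (4.70) and Tslp (4.42) were below.

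**Figure D3:**
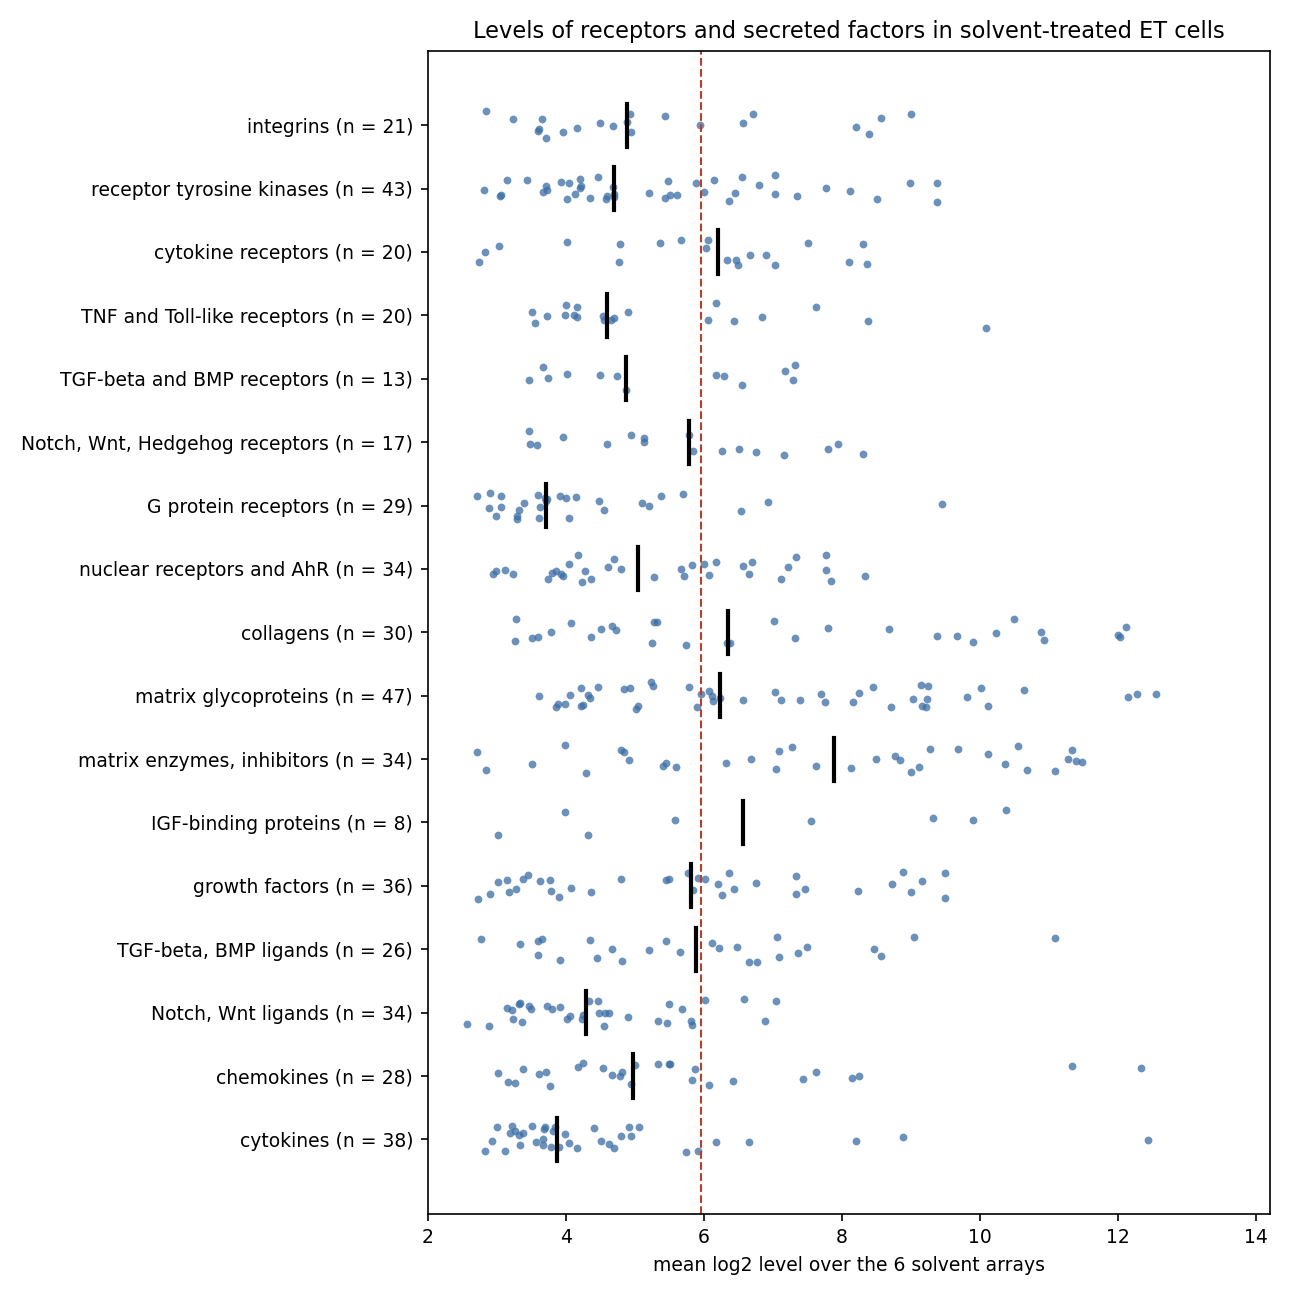
Mean log2 level over the 6 solvent arrays (x axis) of each gene in 8 receptor lists and 9 lists of secreted and matrix factors, with n the genes on the array; points are genes, black bars are list medians and the dashed line is the reference level of 5.96. Medians of the collagen, matrix glycoprotein, matrix enzyme, IGF-binding and cytokine receptor lists lie to the right of the line, and the median G protein receptor (3.72) and cytokine (3.88) lie far to its left.

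Class I molecules show peptides made inside the cell, and 13 of 19 genes of that route were above the reference level (68.4%, against 45.1% of all genes), among them the light chain B2m (10.6 to 11.3), the heavy chains H2-K1 (8.92 ± 0.10) and H2-D1 (8.92 ± 0.20), and the chaperones Calr (11.40 ± 0.14) and Tapbp (8.65 ± 0.21). The heavy chains are near-identical relatives, so their signals may overlap. The constitutive proteasome genes Psmb5 (9.77 ± 0.08), Psmb6 (10.37 ± 0.10) and Psmb7 (10.77 ± 0.12) were well above it. Of the interferon-inducible genes, Psmb10 was at 7.08 ± 0.26, but Psmb8 (5.20), Psmb9 (4.48), Tap1 (4.72) and Tap2 (5.63) were below. Class II, the route on which cortical epithelium selects CD4 T cells, gave 4 of 13 (30.8%, against the same 45.1%), namely Ctsl, the thiol reductase Ifi30 (8.65 ± 0.10), the protease Lgmn (6.98 ± 0.17) and the invariant chain Cd74 (5.7 to 7.0, median 6.0). Cd74 was highest on the second 2 h and second 6 h arrays, and without them its mean was 5.85 and the count 3. The class II chains H2-Aa (3.65), H2-Ab1 (4.05) and H2-Eb1 (4.93) and their activator Ciita (4.15) were below the level.

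The baseline varied little between arrays for most genes. Among the 5587 genes above the reference level the median SD was 0.20, 2830 of them (50.7%) had an SD under 0.2, and 155 (2.77%) had one over 0.5. The 10 genes of largest SD were chosen for their spread, which is therefore described and not tested. Mt2, which encodes a metal-binding metallothionein, was at 6.4 and 9.6 at 2 h, 6.8 and 6.7 at 4 h, and 6.7 and 10.7 at 6 h. Mt1, its neighbour and relative, was at 7.3 and 10.5, 7.2 and 7.4, and 7.4 and 10.8. Both genes were thus high on the second 2 h and the second 6 h array alone. Ptgs2, the inducible cyclooxygenase, was at 5.6 and 9.6, 5.4 and 5.6, and 6.1 and 7.2, and Ereg, the EGF family ligand epiregulin, at 4.9 and 8.5, 4.7 and 5.2, and 5.9 and 6.9. The other 6 were Errfi1, a feedback inhibitor of EGFR, Ccn2, a matrix-associated growth regulator, Hmox1, a haem-degrading stress enzyme, Noct, Sgk1, a serum-induced kinase, and Nr4a1, an immediate early nuclear receptor. All 6 had their highest value on the second 2 h array, such as 12.4 for Ccn2 against 9.3 to 9.9 on the other arrays. Without the second 2 h and second 6 h arrays, the means of Ptgs2 (5.68), Ereg (5.18) and Noct (5.48) fell under the reference level.

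**Figure D4:**
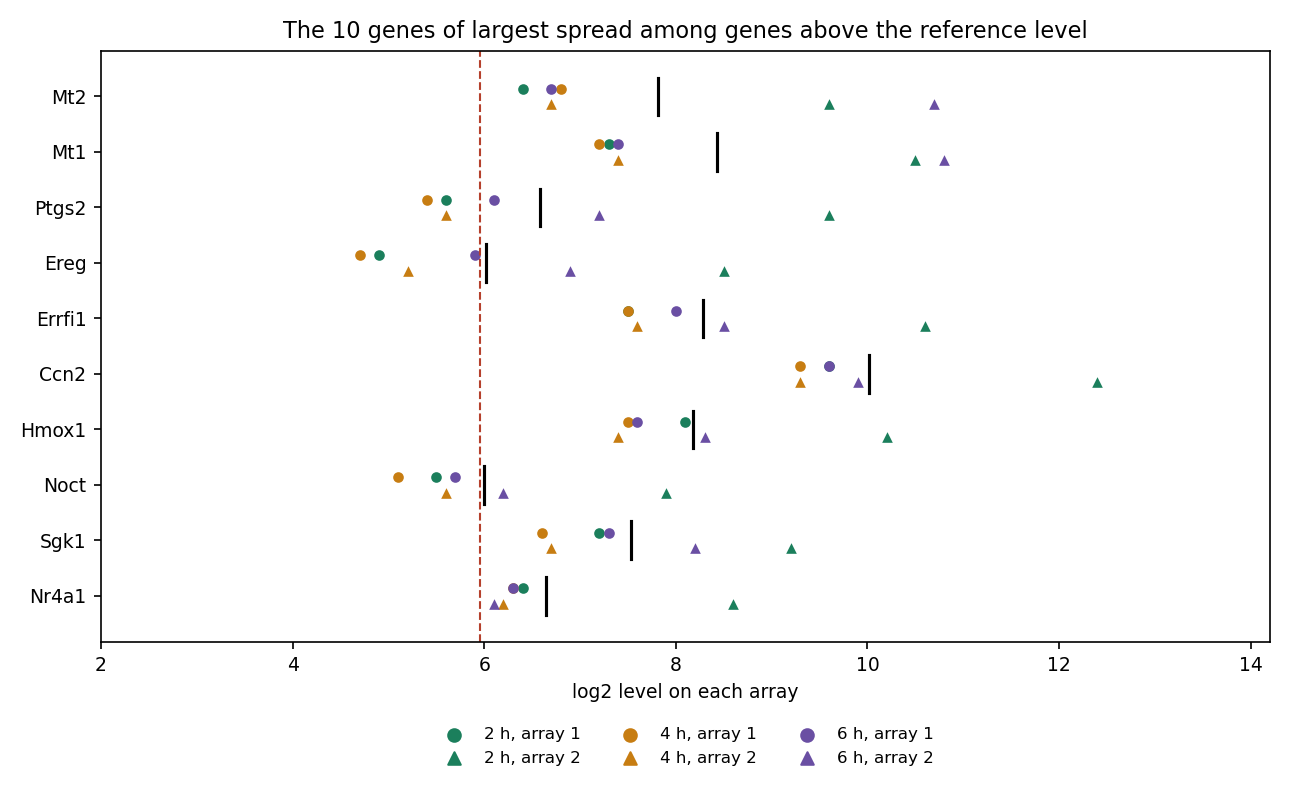
Log2 level (x axis) on each of the 6 solvent arrays for the 10 genes of largest SD among genes above the reference level; colour gives the time, circles array 1 and triangles array 2, black bars are means and the dashed line is the reference level of 5.96. The second 2 h array is highest for 8 of the genes, and the second 6 h array is highest for Mt1 and Mt2.

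No probe set passed a test for a difference over time in solvent. The comparison asked whether any probe set differed among 2, 4 and 6 h, using limma's moderated F-test on 15891 probe sets, and 0 (0%) passed an adjusted p of 0.05. The lowest Benjamini-Hochberg adjusted p by limma was 0.811. Before adjustment 821 probe sets passed 0.05, about the 795 that chance would give. Caprin1, which encodes an RNA granule protein, had one of the 10 smallest p-values and was at 8.8 and 8.7 at 2 h, 8.8 and 8.7 at 4 h, and 9.5 and 9.6 at 6 h. Usp1, a deubiquitinase of DNA repair, was at 7.1 and 6.9, 7.6 and 7.5, and 7.9 and 8.0. In both genes the 6 h arrays lay above the 2 h arrays, but neither passed the test (adjusted p = 0.811 by limma for both). With 2 arrays at each time, changes of 1 log2 unit or less could have been missed, and so could larger ones. A probe set among the 10 smallest p-values differed by 1.1 between 6 and 2 h and did not pass.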

How the data were processed

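RNA of 12 mouse cell cultures was measured on Affymetrix arrays of 22690 probe sets. Per the labels, the authors computed RMA values, deposited to 1 decimal, which were read as log2 from their range. RMA gives all arrays nearly the same distribution, so a global shift in RNA would not show. No version of RMA is given in the sources used here. After 64 control probe sets were dropped, 20380 of 22626 probe sets had 1 gene symbol, 691 had several and 1555 had none. Symbols were updated from a GRCm38.p6 RefSeq table, which matched 20351 and changed 0. Each gene took its probe set of highest mean over the 6 solvent arrays. Probe sets whose mean was above the 30th percentile of all probe sets entered limma 3.58.1 (R 4.3.3) with time as the factor. Replicates were compared by group only. Arrays have no read depth, and their number (2 at each time) limits the precision. The p-values measure the spread between these arrays.

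The genes named were drawn from the 25 highest, the 6 checked markers, the first 3 of each marker list, the 5 highest of each list, the 10 of largest SD and the 10 of smallest time p. Not all of these are named, and other genes were named after their values were seen. Members and lists were chosen with earlier results of these data known. Alternatives were other reference levels, other ways to combine probe sets, other filters and leaving out arrays.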

Additional observations from a re-analysis of the deposited data

Results flagged for a closer look

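For 35 of the 245 genes named (14.3%), 1 of the 6 solvent arrays lay apart from the other 5 by Dixon's criterion, where chance gives about 1 in 20. The genes named include some chosen for their spread, and values are in steps of 0.1, so the share is no test. On 18 of the 35 genes that array was the second 2 h array. It was high for Ccn2 (12.4, others 9.3 to 9.9), Errfi1 (10.6, others 7.5 to 8.5), Hmox1 (10.2, others 7.4 to 8.3), Nr4a1 (8.6, others 6.1 to 6.4), Itga5 (9.3, others 8.2 to 8.3), Ptger4 (7.9, others 6.6 to 7.0) and Twist1 (7.6, others 6.9 to 7.1). It was low for Ackr3 (4.4, others 5.4 to 5.8), Hoxa5 (6.0, others 6.7 to 7.0), Hoxb4 (5.8, others 6.5 to 6.6), Hoxa3 (5.4, others 5.8 to 6.0) and Cdkn1b (7.7, others 8.1 to 8.3). Its other 6 genes were within 0.4 of the nearest arrays, with Actg2 at 5.0, Anxa2 at 11.5, Cdk1 at 10.2, Clcf1 at 6.5, H2-K1 at 9.1 and Sfrp4 at 6.3.

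On the remaining 17 genes the gap was at most 0.4, a few of the 0.1 steps in which values are given. The first 2 h array stood apart for Ciita (4.5), Col4a2 (9.7), Krt14 (4.6), Psmb8 (5.4) and Tpt1 (13.7). The first 4 h array did so for Arnt (4.3) and the second 4 h array for Krt18 (3.8). The first 6 h array did so for Cxcl12 (12.6), Igfbp6 (9.1), Notch1 (5.3), Rag1 (2.5), Tbx1 (3.0) and Timp2 (11), and the second 6 h array for Ddr1 (9.1), P4ha1 (8.8), Pcna (11.6) and Rps18 (13.6).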

How the results depend on the processing

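The count of genes above the reference level, 5587, became 9474 with the level at the 30th percentile of all probe sets and 3257 with it at the highest reference gene, and lay between 5013 and 7075 under the other alternatives. The epithelial count of 2 became 22 at the 30th percentile, 10 at the median of probe sets, 0 at the highest reference gene and 1 with the mean of a gene's probe sets. The cortical count of 3 became 12, and the medullary count of 0 became 7, at the 30th percentile. The medullary count was 1 at the median of probe sets, without probe sets marked _x or _s, and with the median over arrays, and 0 to 1 when each array was left out in turn (1 without the second 4 h array). The fibroblast count of 32 lay between 25 and 35 under all of these. With the mean of a gene's probe sets, 14 of the 25 highest genes remained and 104 of the 245 genes named moved by over 1 SD. Without _x and _s probe sets 19 moved, 13 changed side and 9 had no probe set left.

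No probe set differed over time under any alternative run, including the 6 h arrays taken as 4 h, with 256 to 1976 at an unadjusted p under 0.05. With replicate number as a block the count was 0, with 785 unadjusted and a lowest adjusted p of 0.727 by limma. Same-numbered arrays did not deviate together in every pair (r = 0.03, 0.24 and -0.10 between times), so the numbers were not taken as a pairing. Signal near background limits all calls below about 6, and saturation limits the order of the highest genes.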

Other observations

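Of 39 cell cycle genes, 33 were above the reference level (84.6%, against 45.1% of all genes), led by Pcna (11.2 to 11.6), the sliding clamp of DNA replication, the helicase subunit Mcm7 (10.62 ± 0.38) and the mitotic kinase Cdk1 (10.2 to 10.5). The median member of the list stood at 8.08, percentile 84.8 of all genes. A few proliferation markers were near or under the level, with Mki67 at 5.1 to 6.5 (mean 6.00), Foxm1 at 6.13 ± 0.10, Bub1 at 5.55 and Tyms at 3.52. Of 12 genes that restrain the cycle 7 were above it (58.3%, near the 45.1% of all genes, and 6 without the second 2 h and second 6 h arrays), with the kinase inhibitors Cdkn2c (8.3 to 8.9), Cdkn2b (7.9 to 8.8) and Cdkn1b (8.15 ± 0.23) highest and Cdkn2a at 6.75 ± 0.42. The catalytic telomerase gene Tert was at 3.67. Glycolysis gave 15 of 19 (78.9%), led by Ldha (11.9 to 12.3), lactate dehydrogenase.

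Of 19 imprinted genes, many of which are strongly expressed in fetal tissues, 6 were above the reference level (31.6%, against 45.1% of all genes). The count was 5 without the second 2 h and second 6 h arrays. Gnas, a G protein subunit gene with several transcripts, was at 11.95 ± 0.10 and the non-coding Meg3 at 7.35 ± 0.29, while Peg3 (4.78), Dlk1 (4.48), Mest (3.68) and Peg10 (3.18) were below it. All 4 sex-linked genes were below it: Xist, which silences an X chromosome in female cells, at 4.02, and the Y-linked Kdm5d, Uty and Eif2s3y at 3.28, 3.03 and 2.60. Neither the X-silencing nor the Y-linked transcripts therefore gave a sex for the line.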
